A study of Mus musculus with 4 samples.

Results

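Transcripts of 10 genes that build the intercalated disc were followed in mouse ventricle with and without extra serum response factor (SRF), which activates muscle and cytoskeletal genes through CArG boxes in their promoters. The genes were the desmosomal cadherins Dsc2 and Dsg2, the desmosomal plaque genes Dsp and Jup, the adherens junction genes Cdh2, Ctnna1, Ctnnb1 and Nrap, the connexin Gja1 and the scaffold gene Tjp1. Every probe set whose platform annotation names exactly 1 of these symbols was taken, which gave 16 of the 12488 probe sets on the array, with all 10 genes represented. The 2 transgenic samples came from ventricles of mice with moderate, heart-specific SRF overexpression, and the 2 non-transgenic samples from ventricles of mice without the transgene. All mice were 6 months old. Each sample was total RNA on 1 Affymetrix array. The promoter that drives the transgene, the strain, and whether a sample is 1 animal or a pool are not stated in the labels. Srf is not analysed here, and so its overexpression was not checked.

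The intercalated disc is the end-to-end contact between cardiomyocytes. At desmosomes the cadherins Dsc2 and Dsg2 reach across to the next cell, and plakoglobin (Jup) and desmoplakin (Dsp) tie them to desmin filaments inside it. At adherens junctions N-cadherin (Cdh2) is linked to actin through beta-catenin (Ctnnb1) and alpha-catenin (Ctnna1), and connexin 43 (Gja1) forms the gap junction channels that carry the electrical impulse. Inherited loss of desmosomal proteins is known in humans as a cause of arrhythmogenic cardiomyopathy.

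The arrays had similar median signals, between 49.0 and 50.6 on the transgenic and between 52.3 and 53.9 on the non-transgenic arrays. A signal is the deposited linear intensity of a probe set, and changes are given as transgenic minus non-transgenic on the log2(signal + 9) scale with limma's moderated standard error. With 2 arrays per group, that number limits the precision of every value. Markers of cardiomyocytes were bright in both groups, for example Myl2, the ventricular regulatory light chain, at 9026 and 9760 in transgenic against 11572 and 11287 in non-transgenic ventricle. The summed signal of 12 probe sets for 11 cardiomyocyte genes was 74604 and 76897 on the transgenic arrays and 95954 and 92676 on the non-transgenic arrays, a ratio of 0.803, and 5 of the 11 genes were lower after adjustment. The summed signal of 14 probe sets for 12 hepatocyte genes was 292 and 313 on the transgenic arrays but 3007 and 5637 on the non-transgenic arrays. Of the 9 hepatocyte genes tested, 7 were lower. By probe sets these were 8 of 10, against 3.86% lower among all probe sets tested. The dimmest 40% of the array was not tested, a cut at a mean level of about 30.0. Among the called hepatocyte genes only Alb had a transgenic mean above that level, at 43. The others were tested through their higher non-transgenic signal. Without the cut Apoa2 did not pass (limma adjusted p = 0.0736), and the other called genes did (up to 0.0437). Fibroblast markers summed to 10884 and 10617 in transgenic and to 7346 and 7192 in non-transgenic ventricle, with 8 of 10 genes higher. No marker probe set was listed at 0.

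Dsc2 and Dsg2 were lower in transgenic ventricle, and Ctnnb1 was higher. Of the 16 probe sets, 11 passed the filter that left out the dimmest 40% of the array. Among those 11, 1 was higher and 2 were lower at an adjusted p below 0.05, and 8 did not pass. Over all 7453 probe sets tested in limma, 7.93% were called, 4.07% higher and 3.86% lower. The median change of the 11 tested probe sets was -0.13, against -0.0092 over all tested probe sets. The median of all 16 was -0.20, against -0.055 over all 12422 probe sets that were not controls. The transgenic and non-transgenic arrays did not overlap in 13 of the 16 probe sets, 4 higher and 9 lower, against 49.8% of all probe sets, 20.8% higher and 29.0% lower. In bulk ventricle, fewer cells of a type and less RNA per cell cannot be told apart. Ctnnb1 was the only member called when no filter was applied (1 of 16 probe sets, against 2.65% of all).

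**Figure D1:**
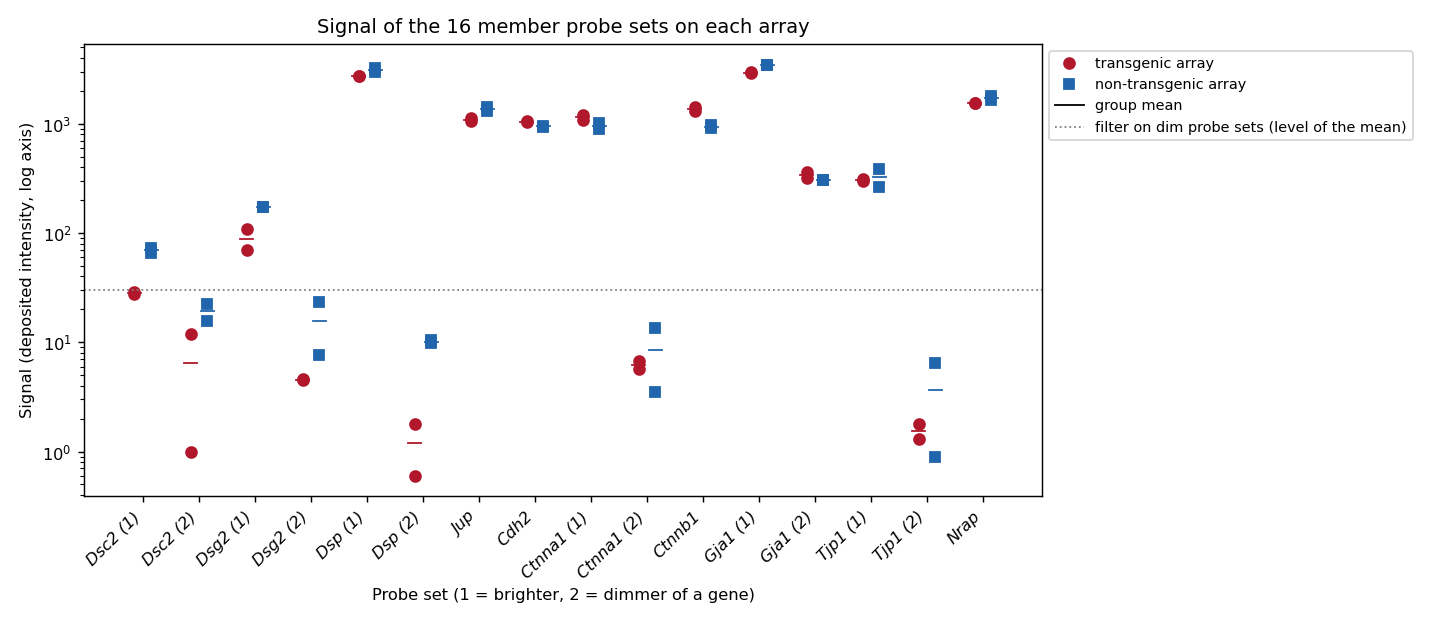
Signal of each of the 16 probe sets on every array, on a log axis, with transgenic arrays as red circles, non-transgenic arrays as blue squares and group means as short lines. The dotted line is the filter on dim probe sets, a mean level of about 30.0. All 7 desmosomal probe sets (Dsc2, Dsg2, Dsp and Jup) have both transgenic arrays below both non-transgenic arrays, and Ctnnb1 has both above.

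All probe sets of the 4 desmosomal members read lower in transgenic ventricle. These genes had 7 probe sets, and in 7 of 7 the transgenic arrays lay below the non-transgenic arrays without overlap. Over all probe sets on the array, 29.0% had that arrangement. Probe sets of the same gene on the same arrays are repeat readings, so the 7 are not independent. The members were also chosen with earlier results of these data known. Both cadherins were called lower, and the plaque genes Jup and Dsp did not pass the test. Because 3 of the 7 probe sets were below the filter, only 4 entered the test.

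Desmocollin 2 (Dsc2) is the desmocollin of cardiac muscle. Its brighter probe set, 103506_f_at, read 29.1 and 27.8 on the transgenic arrays, against 65.1 and 73.2 on the non-transgenic arrays. The 2 transgenic arrays were close together and well under the lower non-transgenic array. The log2 change was -1.06 ± 0.22 (SE), or 2.08-fold lower, with an adjusted p of 0.0336. The transgenic mean of 28.4 lies under the filter level of 30.0, so this probe set was tested only because its non-transgenic signal was higher. Without the filter the adjusted p was 0.0955, and leaving out any 1 of the 4 arrays ended the call (adjusted p from 0.0669 to 0.109). The dimmer probe set 97768_at read 11.9 and 1.0 in transgenic and 22.6 and 15.7 in non-transgenic ventricle, a change of -0.95 ± 0.40 that was not tested. The suffix of the brighter probe set marks probes that can bind related sequences. The related desmocollins Dsc1 (7.4 and 5.4 against 12.0 and 7.7) and Dsc3 (3.2 and 6.5 against 4.4 and 11.5) were dim on all arrays, with no call.

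Desmoglein 2 (Dsg2), the partner cadherin, was lower too. Probe set 104480_at read 69.9 and 108 on the transgenic arrays and 174 and 173 on the non-transgenic arrays. The non-transgenic arrays were nearly equal, and the transgenic arrays differed from each other by more but stayed below them. The log2 change was -0.93 ± 0.21 (SE), or 1.90-fold lower (adjusted p = 0.0438). The call ended without the filter (adjusted p = 0.0973) and without transgenic replicate 1 or either non-transgenic array (adjusted p from 0.107 to 0.143). Without transgenic replicate 1 the change was -0.64. A dimmer second probe set, 98319_at, read 4.5 and 4.6 in transgenic and 23.5 and 7.6 in non-transgenic ventricle, a change of -0.78 ± 0.35 below the filter.

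Dsc2 and Dsg2 lie in the same cadherin cluster of chromosome 18, with 6 other protein-coding genes between them in RefSeq's GRCm38.p6 annotation, all of them desmocollins or desmogleins. Cdh2 and Ctnna1 are on the same chromosome, and neither was called. Within arrays, the log2 ratio of Dsc2 over Dsg2 was -1.05 and -1.67 on the transgenic arrays and -1.31 and -1.15 on the non-transgenic arrays. The groups overlapped, and the difference of -0.13 changed sign without transgenic replicate 2 (0.18), so a difference in the size of the 2 falls was not detectable here.

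Hepatocytes and other epithelia also carry Dsc2 and Dsg2, and the hepatocyte markers given above were lower in the transgenic samples. Between the 2 non-transgenic arrays the hepatocyte sum was 1.87 times higher on replicate 2, while Dsg2 was 174 on replicate 1 and 173 on replicate 2 and Dsc2 was 65.1 and 73.2. The part of liver-type RNA in the falls of both cadherins was not tested. Of 8 measured epithelial and mesothelial genes 4 were tested, and Krt18 was higher in transgenic ventricle (309 and 269 against 33.0 and 22.9) with 0 lower. The non-transgenic mean of this probe set, 27.95, lies under the filter level of 30.0, so it was tested through the transgenic arrays. Without the filter it still passed (limma adjusted p = 0.00507). A second Krt18 probe set, below the filter, read 4.6 and 3.0 against 9.5 and 3.5. The list had summed signals of 702 and 659 in transgenic and 455 and 393 in non-transgenic ventricle. Without the brighter Krt18 probe set the sums overlapped, at 393 and 390 in transgenic and 422 and 370 in non-transgenic ventricle. The epithelial adhesion gene Epcam read 5.0 and 6.1 in transgenic and 3.0 and 4.0 in non-transgenic ventricle.

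Plakoglobin (Jup), the armadillo protein of the desmosomal plaque, read 1130 and 1049 in transgenic and 1408 and 1313 in non-transgenic ventricle. Its log2 change of -0.32 ± 0.089 (95% interval -0.53 to -0.11) had an unadjusted p of 0.00899 and an adjusted p of 0.0824, and so did not pass. Desmoplakin (Dsp), which joins the plaque to intermediate filaments, read 2738 and 2727 in transgenic and 2973 and 3223 in non-transgenic ventricle. Its change was -0.18 ± 0.073 (adjusted p = 0.191), and a second Dsp probe set near the bottom of the scale read 1.8 and 0.6 against 10.5 and 9.8. For both genes the groups did not overlap, and the changes of the tested probe sets were nearer 0 than those of Dsc2 and Dsg2. The ratios of mean signal, transgenic over non-transgenic, were 0.801 for Jup and 0.882 for the brighter Dsp probe set, beside 0.803 for the summed cardiomyocyte markers. The same ratio was 1.11 for Cdh2, 1.19 for the brighter Ctnna1 probe set and 0.909 for Nrap. Single cardiomyocyte marker probe sets ran from 0.673 (Myl3) to 0.944 (Actc1). The part of cardiomyocyte RNA content in the values of Jup and Dsp was not tested.

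**Figure D2:**
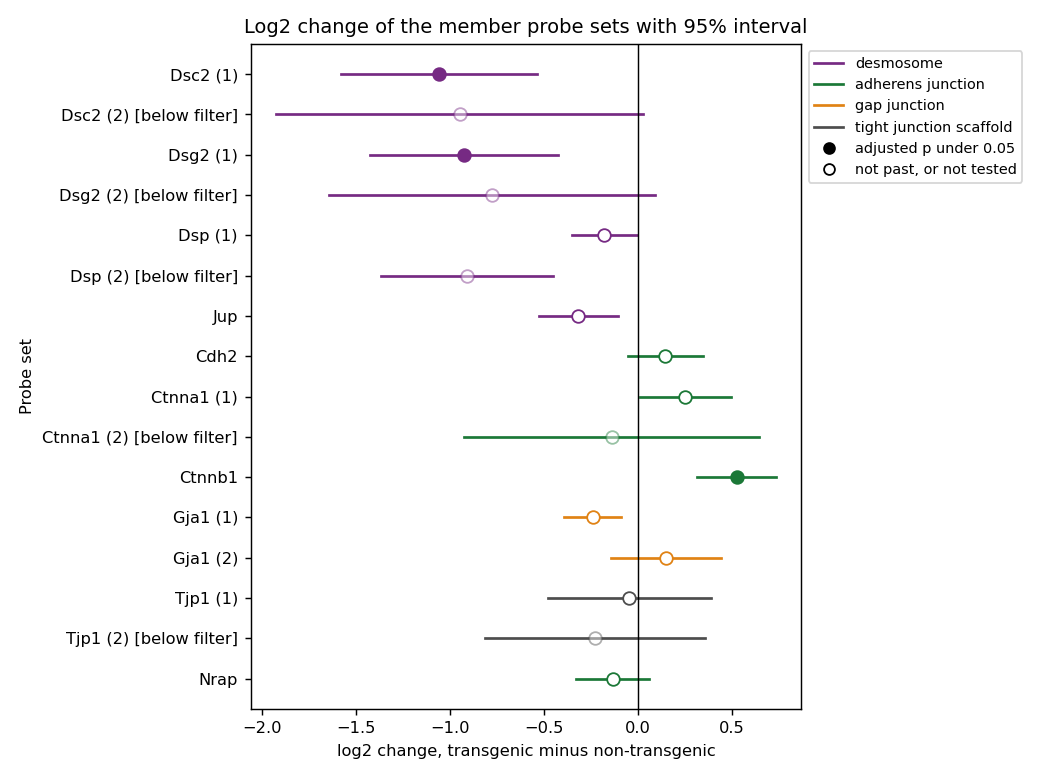
Log2 change, transgenic minus non-transgenic, of the 16 probe sets with limma's 95% interval, coloured by junction type, with filled points for an adjusted p below 0.05 and paler open points for probe sets below the filter. Desmosomal changes run from -1.06 to -0.18, and among the adherens junction genes Ctnnb1 stands at 0.53.

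No adherens junction gene among the members was called lower. Of 4 genes tested, 1 was higher, 0 were lower and 3 did not pass. Beta-catenin (Ctnnb1), which binds the cadherin tail and also carries the Wnt signal to the nucleus, read 1411 and 1307 on the transgenic arrays and 916 and 965 on the non-transgenic arrays. Both transgenic arrays were clearly above both non-transgenic arrays. The log2 change was 0.53 ± 0.089 (SE), or 1.44-fold higher, with an adjusted p of 0.0175. It kept its call without the filter (adjusted p = 0.0376) and lost it without transgenic replicate 1 (0.0768) or non-transgenic replicate 1 (0.0542). Fibroblasts also make beta-catenin, and the ratio of summed fibroblast markers was 1.48 beside 1.45 for Ctnnb1 signal. The brightest fibroblast marker, Dcn, weighed most in that sum (4665 and 4569 in transgenic against 3204 and 3177 in non-transgenic ventricle). Ratios of single fibroblast probe sets ran from 0.689 (Pdgfra) to 4.37 (Postn). Other marker sums were higher too, with ratios of 1.52 for macrophages (4 of 7 tested genes higher), 1.88 for smooth muscle and pericytes (1 of 6) and 2.99 for atrial myocytes (2 of 3), against 1.05 for endothelium (1 of 9 higher and 1 lower). The higher smooth muscle sum came mostly from Acta2 (1478 and 1539 against 397 and 431). The median log2 change of the 8 probe sets in that list was -0.023. The higher atrial sum came mostly from Nppa (2024 and 1879 against 461 and 412), with a median of 0.92 over 5 probe sets. The part of these cell types in the rise of Ctnnb1 was not tested.

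N-cadherin (Cdh2), the classical cadherin of the heart muscle cell, read 1040 and 1051 in transgenic and 958 and 932 in non-transgenic ventricle. Alpha-catenin (Ctnna1), the link from the cadherin complex to actin, read 1079 and 1202 in transgenic and 1011 and 903 in non-transgenic ventricle. Both were without overlap on the higher side, and neither passed. The change was 0.15 ± 0.085 for Cdh2 (95% interval -0.056 to 0.35, adjusted p = 0.343) and 0.25 ± 0.10 for Ctnna1 (0.0094 to 0.49, adjusted p = 0.193). A second Ctnna1 probe set was near the bottom of the scale (5.7 and 6.8 against 3.5 and 13.6), with overlapping groups. Nrap, a protein that anchors terminal actin filaments at the disc, read 1556 and 1559 in transgenic and 1635 and 1789 in non-transgenic ventricle. Its change of -0.13 ± 0.082 did not pass (95% interval -0.33 to 0.060, adjusted p = 0.366).

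Connexin 43 (Gja1) gave probe sets that disagreed. The brighter, 100064_f_at, read 2911 and 2961 in transgenic and 3474 and 3473 in non-transgenic ventricle, and the dimmer, 100065_r_at, read 362 and 316 against 303 and 303. The first was lower and the second higher without overlap. The log2 changes were -0.24 ± 0.065 (adjusted p = 0.0721) and 0.15 ± 0.12 (adjusted p = 0.502), and neither passed. Both probe sets carry the same source accession, and their suffixes mark probes that may cross-react or met fewer design rules. No direction is therefore given for Gja1. The ratio of mean signal was 0.845 for the brighter and 1.12 for the dimmer probe set, beside 0.803 for the summed cardiomyocyte markers.

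Zonula occludens 1 (Tjp1), a scaffold at the edge of gap junction plaques, read 298 and 314 in transgenic and 382 and 261 in non-transgenic ventricle. The transgenic arrays lay between the non-transgenic arrays. The change was -0.047 ± 0.18 with a 95% interval of -0.48 to 0.39 and an adjusted p of 0.906, which leaves room for a change of either sign. A second probe set stayed at or below 6.4 on all arrays.

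Ratios within an array were taken to describe unequal change of related members. Centring the arrays on their medians cannot change such a ratio, because it shifts all probe sets of an array alike. Quantile normalization moved the differences between groups, for example from -0.32 to -0.22 for Dsp over Cdh2. Jup and Ctnnb1 are closely related armadillo proteins that can both bind the tail of classical cadherins. The log2 ratio of Jup over Ctnnb1 was -0.32 and -0.31 on the transgenic arrays and 0.62 and 0.44 on the non-transgenic arrays, a difference of -0.84 with no overlap. The ratio of Gja1 (brighter probe set) over Cdh2 was 1.48 and 1.49 in transgenic and 1.85 and 1.89 in non-transgenic ventricle, a difference of -0.39. With the dimmer Gja1 probe set (chosen after seeing the data) this ratio was -1.50 and -1.71 in transgenic and -1.63 and -1.59 in non-transgenic ventricle, with overlap and a difference of 0.0056, so no unequal change of Gja1 and Cdh2 is drawn from these arrays. The ratio of Dsp over Cdh2 was 1.39 and 1.37 in transgenic and 1.63 and 1.78 in non-transgenic ventricle, a difference of -0.32. In 3 of the 4 ratios of brighter probe sets the groups did not overlap. The 49.8% without overlap among all single probe sets is not a background for ratios, and none was computed for them. Gja1 and Dsp were both set over Cdh2, so their ratios are not independent. An exact two-sided permutation test over 2 against 2 arrays gave p = 0.333 for the 3 ratios without overlap. That is the smallest p that this test can give, so it cannot reach 0.05 here.

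**Figure D3:**
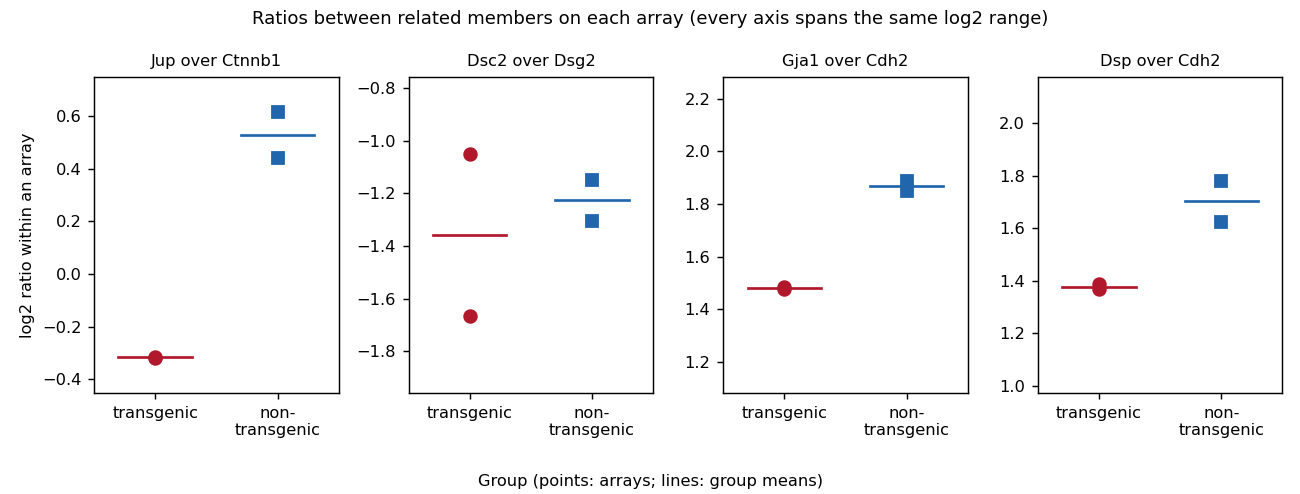
Log2 ratio of the brighter probe sets of related members on each array, with transgenic arrays (red circles) left of non-transgenic arrays (blue squares) and lines at the group means. Jup over Ctnnb1 stands at -0.32 and -0.31 in transgenic ventricle and at 0.62 and 0.44 in non-transgenic ventricle, while Dsc2 over Dsg2 overlaps.

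Around these 10 genes, 57 of 87 other junction genes of a wider list were on the array, and 36 had a probe set that was tested. Of the 36, 3 were higher, 1 was lower and 32 did not pass. All 4 stood in the list's adherens junction group, which also takes in actin-attachment genes and the Z-disc gene Ldb3. That group held 19 of the 36 tested genes and 26 of the 45 tested probe sets. By probe sets, 4 of 45 were higher and 1 was lower, which is 11.1% called beside 7.93% of all probe sets tested (4.07% higher and 3.86% lower). The median change of the 45 was 0.015.

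Enah, an actin-elongating protein that sits at the disc and at focal adhesions, had 3 tested probe sets that were all higher without overlap. The brightest read 769 and 740 in transgenic and 422 and 373 in non-transgenic ventricle, a change of 0.91 ± 0.11 (adjusted p = 0.00530). The other two gave 1.20 ± 0.29 (adjusted p = 0.0512) and 0.49 ± 0.17 (adjusted p = 0.143). Actn1, a non-muscle alpha-actinin that crosslinks actin, was higher without overlap in 3 of 3 tested probe sets. Of these 2 were called, with changes of 0.73 ± 0.17 (294 and 227 against 144 and 161, adjusted p = 0.0432) and 1.13 ± 0.24 (62.6 and 85.6 against 31.4 and 26.1, adjusted p = 0.0377), and the third read 72.8 and 60.7 against 33.8 and 47.0 (0.63 ± 0.24, adjusted p = 0.166). Ctnnal1, a relative of alpha-catenin, read 57.2 and 74.1 in transgenic and 26.3 and 14.7 in non-transgenic ventricle (1.36 ± 0.29, adjusted p = 0.0372). The non-transgenic means of Ctnnal1 and of the dimmest Actn1 probe set lie under the filter level, so both were tested through the transgenic arrays, and without the filter neither passed (adjusted p = 0.0975 and 0.102). Ldb3, a PDZ-LIM protein that binds alpha-actinin at the Z-disc, read 2858 and 2594 in transgenic and 3522 and 3725 in non-transgenic ventricle, a change of -0.41 ± 0.078 (adjusted p = 0.0242). That call ended after median centring (adjusted p = 0.0638) and after quantile normalization (0.0570). Enah kept its call without each single array (adjusted p up to 0.0172), whereas both Actn1 probe sets and Ctnnal1 lost theirs without any of 3 or 4 arrays (adjusted p up to 0.205, 0.218 and 0.182) and Ldb3 without transgenic replicate 2 or non-transgenic replicate 2 (up to 0.0898).

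The remaining desmosomal genes of the wider list were not called in either direction. Of their 12 probe sets, 6 had a log2 change above 0 and 6 below. The groups did not overlap in 3 higher and 3 lower, against 20.8% higher and 29.0% lower of all probe sets. Of 6 genes tested, 0 were higher and 0 lower in limma. Unadjusted p was below 0.05 for 3 of their 7 tested probe sets, Des and Pkp4 (higher) and Ppl (lower). The share of all probe sets with such a p is not given here. Desmin (Des), the filament tied to the desmosome, read 663 and 629 in transgenic and 541 and 517 in non-transgenic ventricle (0.28 ± 0.10, adjusted p = 0.141). Pkp4, a plakophilin-type armadillo protein, read 667 and 669 against 566 and 531 (0.28 ± 0.099, adjusted p = 0.140). Both were higher without overlap and were named after their values were seen. Plakophilin 2 (Pkp2), the armadillo protein most often mutated in human arrhythmogenic cardiomyopathy, read 1222 and 1290 in transgenic and 1012 and 1236 in non-transgenic ventricle (0.17 ± 0.11, adjusted p = 0.420), and a second tested probe set was higher without overlap (454 and 460 against 328 and 414, 0.30 ± 0.14, adjusted p = 0.232). Both of these Pkp2 probe sets carry the suffixes described for Gja1, which mark probes that may cross-react or met fewer design rules. Periplakin (Ppl), a relative of desmoplakin, read 64.5 and 85.5 against 107 and 156 (-0.73 ± 0.23, adjusted p = 0.111).

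Of the other connexins, 4 genes were tested and 0 were called. The share of all probe sets with an unadjusted p below 0.05 is not given, and 1 connexin probe set had such a p. That was Gja5, connexin 40 of atrium, conduction system and arterial endothelium, at 53.7 and 64.5 in transgenic and 89.7 and 103 in non-transgenic ventricle (-0.63 ± 0.19, adjusted p = 0.102). The liver connexin Gjb1, named after its values were seen, read 16.4 and 15.8 in transgenic and 25.3 and 41.0 in non-transgenic ventricle, below the filter. Tight junction and scaffold genes had 0 of 4 called, among them endothelial claudin Cldn5 (221 and 209 against 147 and 176, 0.40 ± 0.15, adjusted p = 0.158) and the junctional adhesion molecule F11r (422 and 427 against 429 and 518, -0.15 ± 0.13, adjusted p = 0.521). Among disc channels and anchors 0 of 3 genes were called. Ankyrin G (Ank3), which holds sodium channels at the disc, read 250.2 and 238 against 162 and 180.1 with its brighter probe set (0.49 ± 0.14, adjusted p = 0.0767).

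**Figure D4:**
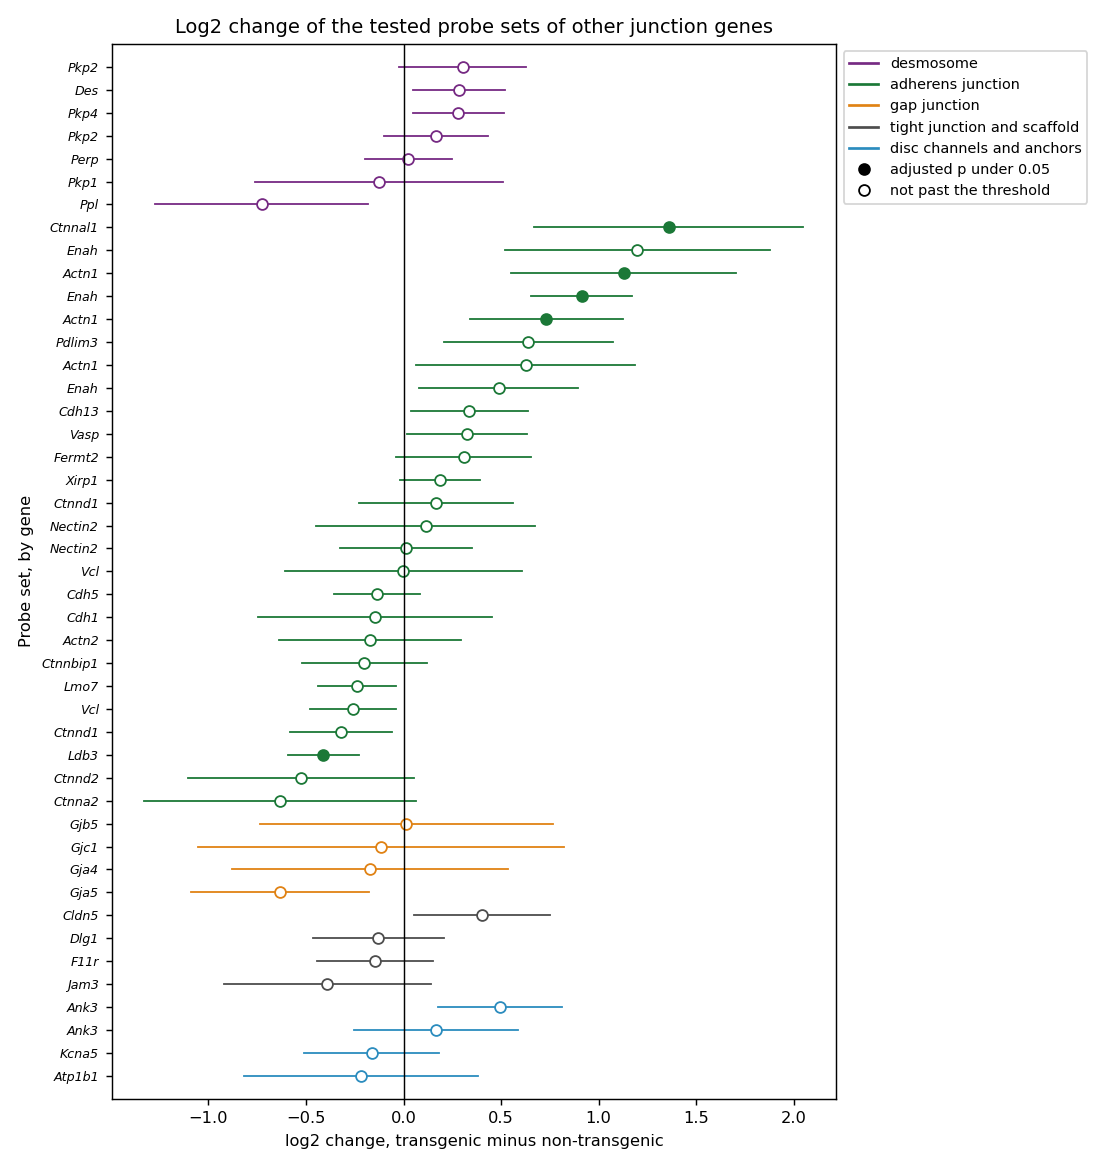
Log2 change, transgenic minus non-transgenic, of the 45 tested probe sets of the wider junction list with limma's 95% interval, grouped by junction type, with filled points for an adjusted p below 0.05. The 5 filled points are Ctnnal1, Enah and 2 for Actn1 on the higher side and Ldb3 on the lower side, all from the adherens junction group.

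SRF acts through CArG boxes, a pair of C, a run of 6 A or T and a pair of G, so the promoter windows of RefSeq (GRCm38.p6, 250 bases before to 50 after a transcript start) were searched for that motif, which reads the same on both strands. Windows for 6 of the 10 members were in the table, and 0 of their 7 windows held an exact box, against 1.63% of 32851 windows of all genes. With 1 mismatch allowed, 1 of the 7 windows held a match, that of Nrap, against 21.1% of all windows. Of the 4 called genes of the wider list, Ldb3 held an exact box, in both of its windows. The 250 bases before the start are printed for Ctnnb1, the member that rose, for Nrap, and for Ldb3. Capitals mark the exact box in Ldb3 and the 2 matches with 1 mismatch in Nrap, and Ctnnb1 holds neither kind. Positions are chr9:120933150-120933399 on the plus strand for Ctnnb1, chr19:56390039-56390288 on the minus strand for Nrap and chr14:34588682-34588931 on the minus strand for Ldb3.
Ctnnb1: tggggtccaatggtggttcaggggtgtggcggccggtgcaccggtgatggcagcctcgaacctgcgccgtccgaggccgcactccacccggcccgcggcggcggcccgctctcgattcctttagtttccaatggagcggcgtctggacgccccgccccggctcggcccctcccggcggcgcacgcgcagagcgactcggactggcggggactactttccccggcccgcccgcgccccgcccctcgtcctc
Nrap: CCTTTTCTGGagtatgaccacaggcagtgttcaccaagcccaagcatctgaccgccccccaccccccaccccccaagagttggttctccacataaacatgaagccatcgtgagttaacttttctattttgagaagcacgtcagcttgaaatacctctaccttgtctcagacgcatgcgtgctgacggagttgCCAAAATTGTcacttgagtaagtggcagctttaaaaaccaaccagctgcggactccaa
Ldb3: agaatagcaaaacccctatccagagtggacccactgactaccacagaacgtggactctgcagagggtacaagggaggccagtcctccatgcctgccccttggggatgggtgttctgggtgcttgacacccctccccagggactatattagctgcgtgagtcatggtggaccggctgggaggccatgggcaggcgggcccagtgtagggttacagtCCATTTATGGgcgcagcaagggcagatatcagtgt
The first base of the Ldb3 box lies 35 bases before the start, and those of the Nrap matches 250 and 58 bases before it. Ldb3 was lower and Nrap was not called (values above). A match or its lack in these windows says nothing of whether SRF binds the gene.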

How the data were processed

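The deposited table holds a signal intensity for each probe set on each array. The scale was taken as linear because all values are above 0 and right-skewed. The labels' protocols state column-purified total RNA and Affymetrix labelling with biotin. The signal software and the scaling were not given in the sources used here. The arrays share a trimmed mean of 150.1, so a change common to most RNA is not visible. Of 12488 probe sets, 66 controls were left out. Names came from the platform annotation (10833 probe sets with 1 symbol, 396 with several, 1193 unlisted), checked by gene number against RefSeq (0 symbols changed).

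The deposited intensities were turned into log2(value + 9), 9 being their rounded 20th percentile, so fold changes of dim genes are understated. Array medians of log2 values differed by 0.118, within the 0.2 allowed, and no further scaling was applied. The 40% of probe sets with the lowest mean over the 4 arrays were not tested. Groups were compared with lmFit and eBayes (variance trend) of limma (version 3.58.1; R version 4.3.3). Tests were two-sided, with p-values adjusted by Benjamini-Hochberg over the 7453 probe sets tested. Values of probe sets below the filter come from the same fit without it. The fit was tested on simulated data. Nothing in the labels says that samples are separate animals; p-values then reflect only the spread between samples, possibly technical. Every member probe set is named; of the wider list, each called gene, and per junction type the gene with the smallest p and the brightest. The members and lists were chosen with earlier results of these data known. Alternatives were other pseudocounts, scalings, filters, variance models and threshold, a block, and leaving out each array.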

Additional observations from a re-analysis of the deposited data

How the results depend on the processing

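Directions of Dsc2, Dsg2 and Ctnnb1 held under every alternative that gave a value, with log2 changes from -1.25 to -0.71, from -1.21 to -0.64 and from 0.47 to 0.61. For most alternatives the sign could not change. Filters, variance models, threshold and block leave the estimate as it is. Other pseudocounts and leaving out 1 array cannot reverse groups that do not overlap. Only median centring (-0.98, -0.85 and 0.61) and quantile normalization (-0.98, -0.92 and 0.50) could have done so. The calls of these 3 genes depended on the variance model, the filter and single arrays. Without a variance trend the change of Ctnnb1 (0.53, adjusted p = 0.121) and that of Dsg2 (-0.93, adjusted p = 0.114) did not pass. An ordinary two-sample test passed none of the 3 (Dsc2 -1.06, Dsg2 -0.93, Ctnnb1 0.53, adjusted p from 0.210 to 0.354). In that test 5 of 11 member probe sets had an unadjusted p below 0.05, against 1175 of all 7453. Without the filter Dsc2 (-1.06) and Dsg2 (-0.93) did not pass, because more probe sets were tested and the variance trend was fitted with dim ones. With the lowest 60% left out Dsc2 was no longer tested. Leaving out single arrays gave changes from -1.13 to -0.98 for Dsc2, from -1.21 to -0.64 for Dsg2 and from 0.47 to 0.58 for Ctnnb1. The number of members higher was 1, but 0 without a trend, 0 in the ordinary test and from 0 to 1 without single arrays. The number lower was 2, but 0 without the filter, 1 with the lowest 60% left out, 1 without a trend, 0 in the ordinary test, 4 at a threshold of 0.1 (Jup and Gja1 added) and from 0 to 1 without single arrays.

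Over all probe sets, 303 higher and 288 lower became 172 and 157 without the filter, 44 and 34 without a trend, 0 and 0 in the ordinary test (1175 with an unadjusted p below 0.05), 477 and 484 at 0.1, and from 125 to 232 higher and from 158 to 191 lower without single arrays. The share of higher among called probe sets was 51.3%, and 66.8% after median centring. The wider list, with 4 higher and 1 lower, had 1 and 0 without the filter and 2 higher with the lowest 60% left out. Without a trend it had 0 and 0. There 15 probe sets had an unadjusted p below 0.05, a count whose share over all probe sets is not given here. In the ordinary test the list had 0 and 0, and 9 of its 45 probe sets had such a p, against 1175 of all 7453. The list had 7 higher at 0.1, and 0 lower after median centring or quantile normalization. Tjp1 changed sign after median centring (0.033) and without non-transgenic replicate 1 (0.22; range without single arrays -0.31 to 0.22), and the ratio of Dsc2 over Dsg2 with a pseudocount of 36 (0.060) and without 1 array (range -0.44 to 0.18). The ratio of Gja1 over Cdh2 (-0.39) did so with the dimmer Gja1 probe set (0.0056), chosen after seeing the data. Except where stated, the cause was not tested.

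The replicate numbers are shared between groups, but the deviations of same-numbered arrays correlated at -0.060 over 7453 probe sets, so they were not treated as pairs. With the replicate block the member calls were again 1 higher and 2 lower, all probe sets gave 348 and 345, and the wider list 5 and 2.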
